A study of Mus musculus with 8 samples.

Results

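The genes described are 10 mediators of angiogenesis, tissue remodelling and immune restraint that tumour neutrophils are known to make: Vegfa, Spp1, Mmp12, Tgfb1, Il10, Osm, Entpd1, Nt5e, Wfdc17 and Cd84. They were chosen by name, with earlier results of these data known. Each of the 10 has a row among the 18187 gene symbols of the deposited table. The study concerns how T cell immunotherapies activate neutrophils against tumours, and the libraries are bulk RNA sequencing of cells whose type is given as neutrophils. All 8 come from mice bearing the B16 melanoma, a transplantable mouse skin tumour line. In 3 libraries (replicates 1 to 3) the treatment was aOX40, an antibody to OX40, a costimulatory receptor of activated T cells, and in 5 libraries (replicates 2 to 6) it was IgG. The sources used here give no strain, age, dose or time after treatment. They also leave unsaid how the cells were isolated and whether each library is 1 animal, so a p-value reflects how far libraries differ, and part of that may be technical.

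Neutrophils that enter a tumour can take on functions beyond killing. VEGF-A drives the growth of new vessels, osteopontin and matrix proteases remodel the tissue around them, and TGF-beta and interleukin-10 restrain T cells and macrophages. A pair of surface enzymes, CD39 and CD73, turns extracellular ATP in steps into adenosine, which dampens leukocytes through its own receptors. In mice, Wfdc17 and Cd84 are known as markers of the suppressive state of neutrophils and related myeloid cells in tumours.

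The libraries held 69629957 to 73480484 counts in aOX40 and 52682208 to 63238045 in IgG, and each aOX40 library was deeper than each IgG library. Markers of the labelled cell type were abundant: the 20 neutrophil markers summed to 37087 to 42987 CPM (counts scaled to library size, here with TMM factors) in aOX40 and 32638 to 48235 CPM in IgG. Of the macrophage and monocyte markers, 17 of 20 were in the table and summed to 629 to 835 CPM in aOX40 and 446 to 949 CPM in IgG (exact two-sided permutation p = 0.679, 3 against 5 libraries). Most of that sum was Ly6c2. Of the 17, 9 stayed below 2 CPM in every library, among them C1qa, C1qb, C1qc and Trem2, and Mertk and Folr2 were at 0 in at least 7 of the 8 libraries. One marker of this list rose: Adgre1, which encodes F4/80, was at 21.6 ± 6.37 CPM with aOX40 (SD, n = 3) and 6.12 ± 2.62 CPM with IgG (SD, n = 5), with a log2 fold change of 1.81 (SE 0.37, edgeR adjusted p = 0.0248). Csf1r, at 51.2 ± 21.2 CPM with aOX40 and 17.5 ± 8.26 CPM with IgG, was higher without overlap and did not pass (edgeR adjusted p = 0.0546). Gpnmb went the other way, at 54.2 ± 21.3 CPM with aOX40 and 156 ± 124 CPM with IgG, and did not pass (edgeR adjusted p = 0.114). The dendritic cell markers summed to 16.2 ± 4.51 CPM with aOX40 and 32.7 ± 9.09 CPM with IgG (exact permutation p = 0.0357). Only 5 of the 8 were in the table, and most of the sum was Itgax, at 15.4 ± 4.07 CPM with aOX40 and 30.9 ± 7.83 CPM with IgG. Itgax did not pass (edgeR adjusted p = 0.0697). Flt3 and Zbtb46 stayed below 2 CPM in every library, while Xcr1 and Clec9a reached 3.58 and 2.09 CPM in IgG replicate 6. The fibroblast and pericyte markers in the table, 4 of 7, summed to 2.49 ± 1.43 CPM with aOX40 and 15.7 ± 11.6 CPM with IgG (exact permutation p = 0.0714). Most of this sum was the collagen gene Col1a1, which fell, at 1.72 ± 0.49 CPM with aOX40 and 15.0 ± 11.8 CPM with IgG, without overlap (-3.09 in log2, SE 0.75, edgeR adjusted p = 0.0414). The calls of Adgre1 and Col1a1 were lost without aOX40 replicate 2, where 0 genes of the whole table were called. The T and NK cell, B cell, melanoma and endothelial markers summed to means of 1.63, 0.309, 7.25 and 6.73 CPM in aOX40 and 1.56, 0.256, 9.56 and 14.7 CPM in IgG, with exact permutation p-values of 0.857, 0.821, 0.500 and 0.143. Of these lists, 6 of 13, 2 of 6, 7 of 7 and 2 of 7 markers were in the table. The 2 endothelial ones went opposite ways, with Pecam1 at 4.61 and Vwf at 2.12 CPM in aOX40 and 13.8 and 0.815 CPM in IgG as means. Macrophages also make osteopontin, interleukin-10 and Mmp12, and the part of other cells in the levels below was not tested. In bulk libraries, fewer cells of a type and less RNA per cell cannot be told apart.

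The mediators differed widely in abundance, and the order of their means was the same in both groups. Per kilobase of exon, Spp1 was highest, at 5181 ± 1172 CPM per kilobase in aOX40 (SD, n = 3) and 2909 ± 1232 CPM per kilobase in IgG (SD, n = 5). Wfdc17 followed at 888 ± 469 CPM per kilobase in aOX40 and 1621 ± 476 CPM per kilobase in IgG, and Osm at 504 ± 76.5 and 1058 ± 448 CPM per kilobase in aOX40 and IgG. Entpd1 was at 210 ± 55.5 CPM per kilobase in aOX40 and 279 ± 55.4 CPM per kilobase in IgG. Vegfa and Cd84 lay lower, with 40.2 ± 15.0 and 26.3 ± 4.06 CPM per kilobase in aOX40 and 65.4 ± 14.3 and 40.1 ± 12.8 CPM per kilobase in IgG. Nt5e, Tgfb1, Il10 and Mmp12 were lowest, between 16.7 and 0.298 CPM per kilobase as means in aOX40 and between 8.19 and 0.707 CPM per kilobase as means in IgG. Neighbours in this order overlapped on the same scale in both groups for Vegfa and Cd84 and for Nt5e and Tgfb1. In aOX40 alone, Cd84 overlapped Nt5e and Tgfb1 overlapped Il10, and in IgG alone, Spp1 overlapped Wfdc17, Wfdc17 overlapped Osm and Il10 overlapped Mmp12. These overlaps compare ranges over libraries. Within each library, Tgfb1 was above Il10 throughout aOX40, and Vegfa was above Cd84 throughout IgG. For the other overlaps named, some library of the group had the reverse order.

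**Figure D1:**
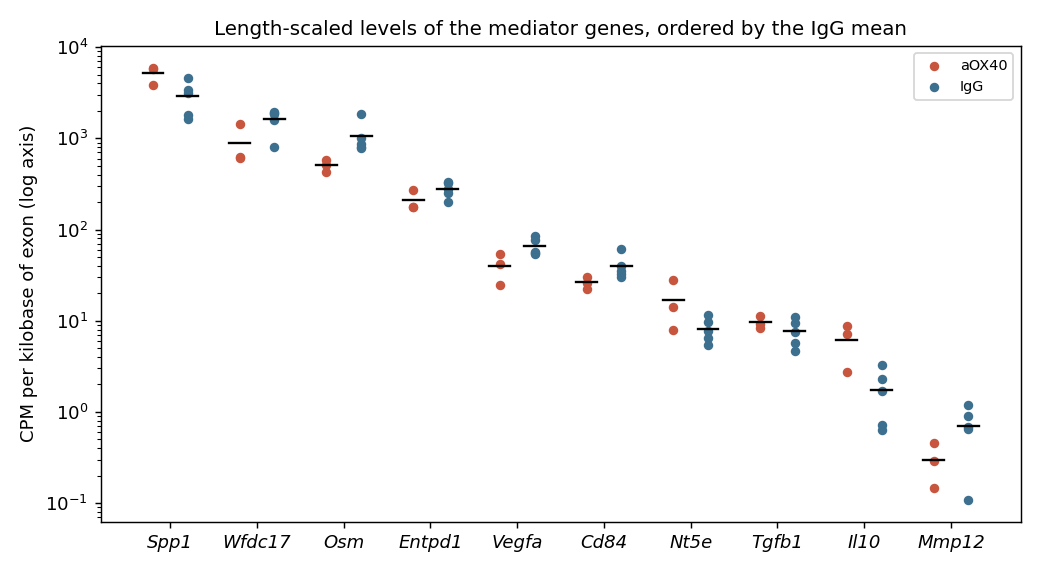
Length-scaled level of each mediator gene in every library, in CPM per kilobase of exon on a log axis, with aOX40 libraries left of IgG libraries and the group mean as a bar. Spp1 stands at the top with group means of 5181 (aOX40) and 2909 (IgG), and Mmp12 at the bottom with 0.298 and 0.707.

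Set against IgG, none of the 10 genes passed the test after aOX40. Of the 10, 0 had an adjusted p below 0.05 in edgeR's quasi-likelihood test, where 5.65% of the 13278 genes tested did; all 10 passed the filter on low counts. Their adjusted p ran from 0.0624 to 0.526. Of the 10, 7 had an unadjusted p below 0.05, as did 24.8% of all genes tested. As the genes were chosen with earlier results of these data known, this comparison cannot serve as a test of the set. DESeq2 called 1 of the 10, Osm, and limma voom called 0. Estimated log2 fold changes were above 0 for 4 genes and below 0 for 6, with a median of -0.51. Over all genes tested, 52.2% were above 0 and the median was 0.05. The groups did not overlap for 1 of the 10, Osm, which was lower; of all genes tested, 7.75% had aOX40 lower and 8.22% had aOX40 higher without overlap. The number of genes called in the whole table hung on single libraries: 750 were called with all of them, 0 without aOX40 replicate 2, 59 without aOX40 replicate 3, 497 without IgG replicate 3 and 475 without IgG replicate 6.

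**Figure D2:**
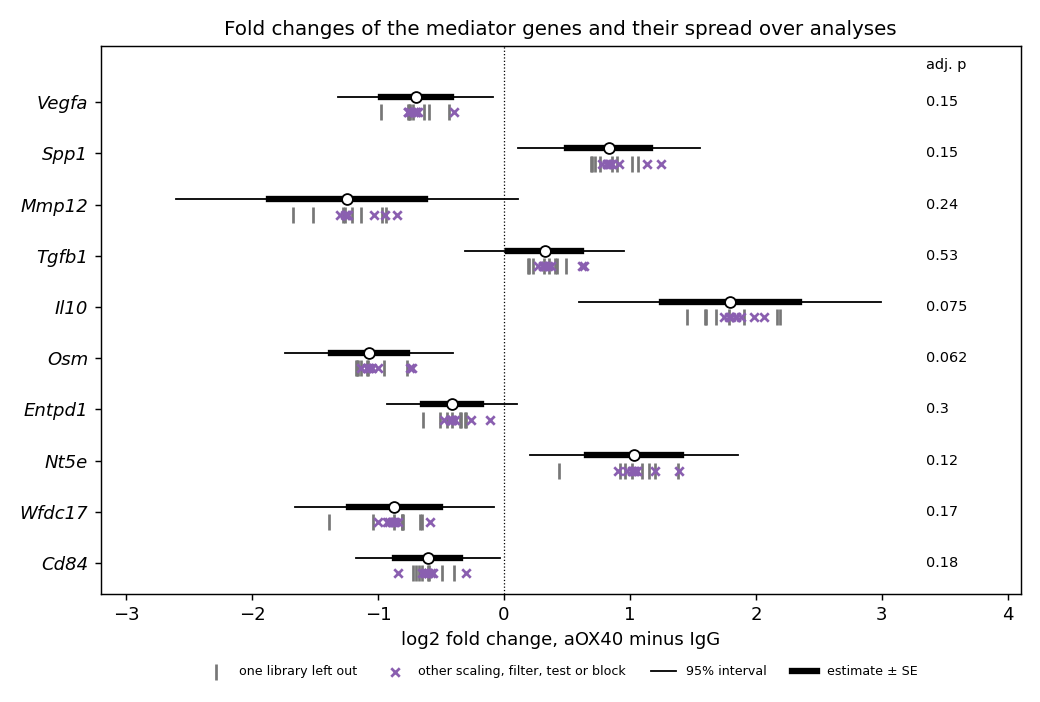
Log2 fold change of each mediator gene, aOX40 minus IgG (circle), with its SE (thick line), its 95% interval (thin line) and its adjusted p at the right. Grey ticks are the estimates with 1 library left out and purple crosses those of the other alternative analyses; every one of these estimates lies on the same side of 0 as its circle.

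Vegfa (chr17:46016993-46032369, minus strand, mm10) encodes VEGF-A, the main growth factor of blood vessels. It was at 105, 178 and 234 CPM in aOX40 replicates 1 to 3 and at 329, 362, 236, 232 and 242 CPM in IgG replicates 2 to 6. The groups overlapped only in that aOX40 replicate 3 was just above IgG replicate 5, the lowest IgG library, and aOX40 replicate 1 was the lowest of all. For Vegfa, the log2 fold change was -0.70 (SE 0.28, 95% interval -1.31 to -0.09, edgeR adjusted p = 0.151), and it was -0.44 without aOX40 replicate 1 and -0.40 with total counts alone. Beside the list counts from here on, 2.64% of all genes tested were higher and 3.00% were lower. The lists were chosen with earlier results of these data known, so their counts are no test of a list. Around Vegfa, the list of VEGF and angiogenic factors had 0 higher and 0 lower of 16 tested genes, with a median log2 fold change of 0.03. The 3 with the smallest p were Arnt, the partner of the hypoxia-inducible factors, at 31.2 ± 13.5 CPM with aOX40 and 62.3 ± 5.95 CPM with IgG (SD, n = 3 and 5; edgeR adjusted p = 0.0702), the vasodilator peptide gene Adm (0.100) and the growth factor gene Hgf (0.123). Hif1a itself was at 365 ± 56 CPM with aOX40 and 423 ± 89.5 CPM with IgG. Prok2, the angiogenic prokineticin known from tumour neutrophils, was at 63.9 ± 8.50 and 56.6 ± 21.6 CPM in aOX40 and IgG.

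Spp1 (chr5:104435118-104441050, plus strand) encodes osteopontin, a secreted phosphoprotein that binds integrins and CD44. It was at 6320, 9449 and 9844 CPM in aOX40 replicates 1 to 3 and at 2938, 5645, 2659, 5173 and 7553 CPM in IgG replicates 2 to 6. aOX40 replicates 2 and 3 were above every IgG library, while aOX40 replicate 1 lay below IgG replicate 6. The transcript made up 0.675%, 1.20% and 1.07% of all counts in the aOX40 libraries, and 0.264%, 0.555%, 0.232%, 0.506% and 0.674% in the IgG libraries. For Spp1, the log2 fold change was 0.83 (SE 0.33, 95% interval 0.11 to 1.56, edgeR adjusted p = 0.150). An unnamed gene model on the same strand, Gm42793, overlaps Spp1 and took 54.4 CPM with aOX40 and 26.1 CPM with IgG as means, far less than Spp1. Of 7 osteopontin receptor genes tested, 0 were higher and 1 was lower, with a median log2 fold change of 0.22. The lower one was Itgb3, the integrin beta 3 chain, at 1.75, 2.13 and 5.34 CPM in aOX40 and 34.7, 20.2, 20.3, 35.5 and 17.4 CPM in IgG, without overlap. Its log2 fold change was -3.06 (SE 0.45, edgeR adjusted p = 0.00996), and the call was lost without aOX40 replicate 2 (0.0741). Cd44, the other class of osteopontin receptor, was at 886 ± 131 CPM with aOX40 and 971 ± 143 CPM with IgG and did not pass.

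Mmp12 (chr9:7344381-7369499, plus strand) encodes macrophage elastase, a protease of elastin, and had the lowest length-scaled level of the mediators. It had 79, 186 and 267 counts in aOX40 replicates 1 to 3 and 229, 255, 42, 401 and 488 counts in IgG replicates 2 to 6, which came to 1.06, 2.09 and 3.33 CPM in aOX40 and 4.70, 4.92, 0.782, 6.54 and 8.64 CPM in IgG. Each aOX40 library lay below every IgG library other than replicate 4, which was the lowest of all 8. For Mmp12, the log2 fold change was -1.25 (SE 0.62, 95% interval -2.6 to 0.11, edgeR adjusted p = 0.243). Among the other matrix proteases and their inhibitors, 3 rose and 0 fell of 14 tested, beside 2.64% higher and 3.00% lower over all genes tested. Of the 14, 12 had a log2 fold change above 0, beside 52.2% of all genes tested, and the median of the 14 was 0.79. As the list was chosen with earlier results of these data known, these counts cannot serve as a test of it. The neutrophil collagenase gene Mmp8 was at 704, 1713 and 860 CPM in aOX40 and 550, 349, 587, 539 and 368 CPM in IgG. The gelatinase gene Mmp9 was at 471, 1254 and 1225 CPM in aOX40 and 274, 420, 582, 424 and 324 CPM in IgG. For Mmp9, aOX40 replicate 1 was below IgG replicate 4, so the groups overlapped. The log2 fold changes of Mmp8 and Mmp9 were 1.19 (SE 0.30) and 1.28 (SE 0.33), with edgeR adjusted p-values of 0.0443 and 0.0467 near the threshold. Mmp8 was called in 5 of 17 alternative analyses and Mmp9 in 6 of 17. The collagenase gene Mmp13 also passed (edgeR adjusted p = 0.0330), with 0, 11.2 and 7.68 CPM with aOX40 and 1.40 CPM with IgG replicate 6 against 0 in the other IgG libraries; it was called in 5 of 15 alternative analyses. Without aOX40 replicate 2 or 3, or without IgG replicate 2, 3, 5 or 6, none of these 3 was called. Mmp8 and Mmp9 are also among the 20 neutrophil markers, of which 3 were higher and 0 lower. The third was Cd177, a surface protein of neutrophils, at 195, 610 and 293 CPM in aOX40 and 149, 111, 154, 187 and 125 CPM in IgG. Its groups did not overlap (1.34 in log2, SE 0.33, edgeR adjusted p = 0.0414). The call of Cd177 was lost without aOX40 replicate 2, where 0 genes of the whole table were called. The median log2 fold change of the 20 markers was 0.03, and the part of the neutrophil markers in these protease counts was not tested.

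**Figure D3:**
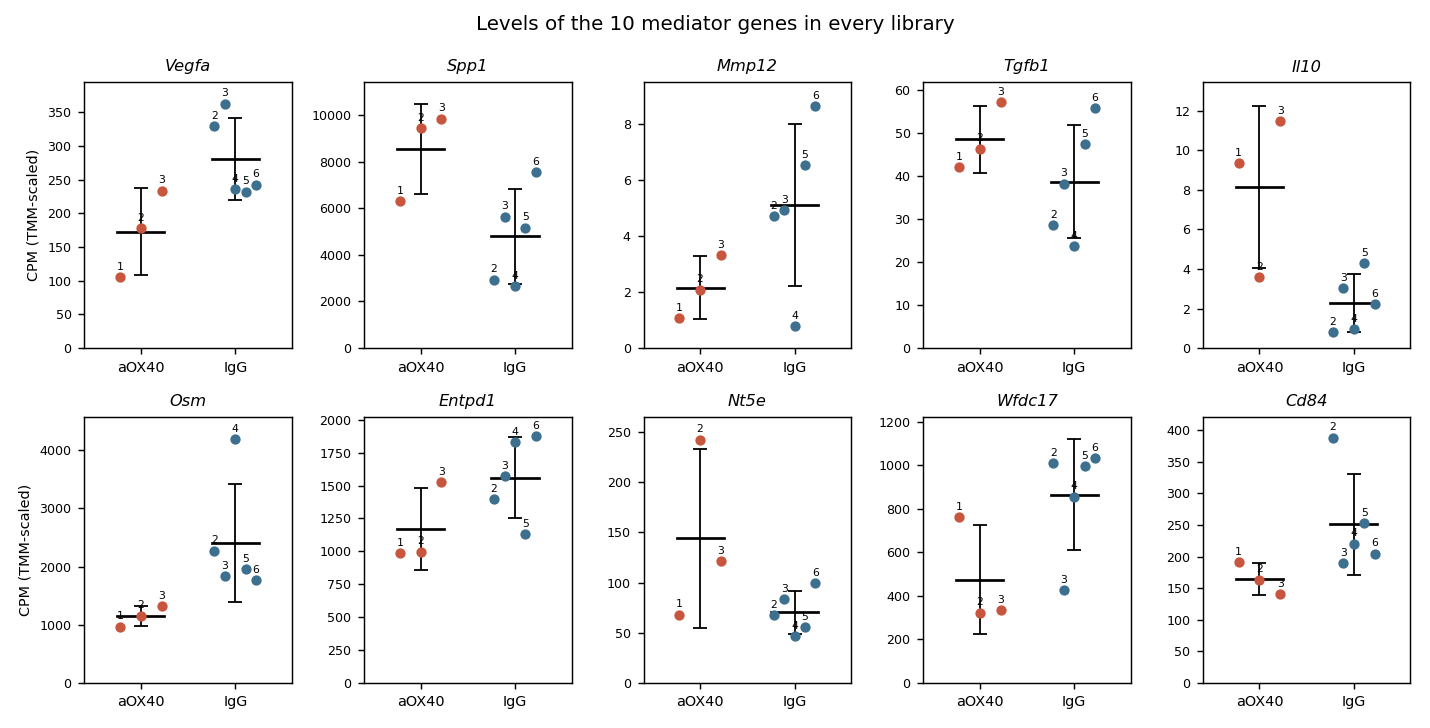
CPM of each mediator gene in every library, aOX40 left and IgG right, with the replicate number above each point and the group mean ± SD in black. The Osm points of the 2 groups do not overlap, with aOX40 below IgG, and the Nt5e point of aOX40 replicate 2 stands far above the others at 242 CPM.

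Tgfb1 (chr7:25687002-25705077, plus strand) encodes TGF-beta 1, a cytokine secreted in a latent form that restrains T cells and promotes scarring. It was at 42.1, 46.3 and 57.1 CPM in aOX40 replicates 1 to 3 and at 28.6, 38.2, 23.7, 47.3 and 55.7 CPM in IgG replicates 2 to 6. The aOX40 libraries fell within the upper part of the IgG range or just above it. For Tgfb1, the log2 fold change was 0.32 (SE 0.29, 95% interval -0.31 to 0.96, edgeR adjusted p = 0.526), the smallest change and the largest p of the 10. The estimate was 0.19 without IgG replicate 4, 0.20 without aOX40 replicate 3, 0.49 without IgG replicate 6, 0.62 with total counts alone and 0.64 with the replicate block. In the list of TGF-beta release, receptors and signalling, 0 of 17 tested genes rose and 1 fell, with a median log2 fold change of -0.41. Above 0 were 4 of the 17, beside 52.2% of all genes tested. The one that fell was Furin, the convertase that cleaves the TGF-beta precursor, at 83.1, 69.6 and 94.2 CPM in aOX40 and 291, 173, 187, 204 and 191 CPM in IgG. Every aOX40 library was below every IgG library. Its log2 fold change was -1.35 (SE 0.23, edgeR adjusted p = 0.0149), and it was called in 14 of 17 alternative analyses, but not without aOX40 replicate 2 (0.111) or 3 (0.0531). An unnamed model on the other strand, Gm44851, had 4.05 CPM with aOX40 and 19.6 CPM with IgG as means.

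Il10 (chr1:131019845-131024974, plus strand) encodes interleukin-10, an inhibitor of macrophage and T cell activation. It had 695, 320 and 921 counts in aOX40 replicates 1 to 3 and 40, 157, 51, 264 and 125 counts in IgG replicates 2 to 6, or 9.35, 3.59 and 11.5 CPM in aOX40 and 0.821, 3.03, 0.949, 4.31 and 2.21 CPM in IgG. aOX40 replicates 1 and 3 were above every IgG library, and aOX40 replicate 2 was within the IgG range. The log2 fold change was 1.80, the largest of the 10 in size, with an SE of 0.54, a 95% interval of 0.60 to 2.99 and an edgeR adjusted p of 0.0754. Scaling by total counts alone gave a call (log2 fold change 2.06, adjusted p = 0.0407), and over 16 alternative analyses the adjusted p ran from 0.0407 to 0.253. Of 13 genes tested in the list of the interleukin-10 receptor and its signalling, 0 rose and 0 fell. Of these 13, 3 were above 0, beside 52.2% of all genes tested, and their median was -0.29. The 3 with the smallest p were the kinase gene Tyk2 (10.5 ± 5.34 CPM with aOX40 and 2.57 ± 1.68 CPM with IgG; edgeR adjusted p = 0.0580) and the transcription factor genes Etv3 (0.0996) and Nfil3 (0.158). The receptor gene Il10ra was at 89.2 ± 19.1 CPM with aOX40 and 103 ± 19.2 CPM with IgG.

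Osm (chr11:4236420-4241026, plus strand) encodes oncostatin M, a cytokine of the interleukin-6 family that acts on stroma and endothelium and is in mice a known target of STAT5. It was at 966, 1156 and 1313 CPM in aOX40 replicates 1 to 3 and at 2274, 1831, 4190, 1961 and 1765 CPM in IgG replicates 2 to 6. All 3 aOX40 libraries were below all 5 IgG libraries, and IgG replicate 4 stood well above the other IgG libraries. The log2 fold change was -1.07 (SE 0.30, 95% interval -1.74 to -0.40, edgeR adjusted p = 0.0624), and it was -0.77 without IgG replicate 4. DESeq2 called Osm (adjusted p = 0.00896), as did edgeR on genes with a mean of at least 5 CPM (0.0330), and over 17 alternative analyses the adjusted p ran from 0.00896 to 0.268. In the list of the interleukin-6 family and its signalling, 0 of 9 tested genes rose and 2 fell, with a median log2 fold change of 0.10.

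Those 2 genes were Cish and Pim1, both known STAT5 targets. Cish, which damps cytokine receptors in a feedback loop, was at 76.8, 52.8 and 69.1 CPM in aOX40 and 214, 126, 158, 162 and 184 CPM in IgG. Pim1, a survival kinase, was at 205, 127 and 239 CPM in aOX40 and 424, 375, 510, 380 and 393 CPM in IgG. Neither gene had overlapping groups. The log2 fold changes were -1.35 (SE 0.23, edgeR adjusted p = 0.0150) for Cish and -1.13 (SE 0.24, edgeR adjusted p = 0.0251) for Pim1. The call was lost without aOX40 replicate 2 or 3 for both (Cish 0.111 and 0.0663, Pim1 0.125 and 0.0574) and without aOX40 replicate 1 for Pim1 (0.0537). Stat5a and Stat5b did not pass, at 3.60 ± 2.21 and 17.7 ± 8.25 CPM in aOX40 and 2.84 ± 0.85 and 18.3 ± 4.49 CPM in IgG.

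Of the promoter windows scanned, that of Cish is shown because it holds a pair of STAT-type motifs, so the choice followed the outcome. Whether STAT5 activity differed between the groups was not tested. The window runs over 300 bases, 250 before and 50 after the start of the gene (chr9:107296409-107296708, plus strand, GRCm38, RefSeq), with matches of TTCNNNGAA, which reads the same on both strands, in capitals:

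Cish promoter: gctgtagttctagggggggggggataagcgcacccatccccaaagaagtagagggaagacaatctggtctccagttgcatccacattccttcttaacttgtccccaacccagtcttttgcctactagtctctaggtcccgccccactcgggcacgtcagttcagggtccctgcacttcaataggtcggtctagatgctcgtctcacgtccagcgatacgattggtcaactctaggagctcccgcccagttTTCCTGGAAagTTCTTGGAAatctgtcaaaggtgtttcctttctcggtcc

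The 2 matches do not overlap and are centred 4 and 15 bases past the start. The motif was in 8.30% of the 32851 promoter windows of the RefSeq table and in the windows of 9.55% of its 27025 genes. It was in neither window of Pim1 and in the windows of 0 of the 8 mediators that the table holds; Il10 and Osm were not among these. A match is a description of the letters and not evidence of binding.

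Entpd1 (chr19:40612366-40741602, plus strand) encodes CD39, which removes phosphates from extracellular ATP and ADP, and Nt5e (chr9:88327197-88372092, plus strand) encodes CD73, which makes adenosine from the AMP that is left. Entpd1 was at 986, 997 and 1528 CPM in aOX40 replicates 1 to 3 and at 1396, 1569, 1827, 1129 and 1873 CPM in IgG replicates 2 to 6. aOX40 replicates 1 and 2 were below every IgG library and aOX40 replicate 3 was within their range. For Entpd1, the log2 fold change was -0.41 (SE 0.23, 95% interval -0.93 to 0.10, edgeR adjusted p = 0.303). It was -0.65 without aOX40 replicate 3, -0.26 with the replicate block and -0.11 with total counts alone. A processed pseudogene within Entpd1 on the same strand, Gm8783, had means of 32.5 and 66.4 CPM in aOX40 and IgG. Nt5e was at 68.1, 242 and 122 CPM in aOX40 and at 67.2, 83.3, 46.2, 55.9 and 99.5 CPM in IgG. aOX40 replicates 2 and 3 were above every IgG library, while aOX40 replicate 1 was among them. The log2 fold change was 1.03 (SE 0.37, 95% interval 0.21 to 1.86, edgeR adjusted p = 0.122). It was 0.43 without aOX40 replicate 2 (adjusted p = 0.570 in edgeR), so that this library set much of the estimate. Per kilobase, the Nt5e level was 4.48%, 15.8% and 5.16% of the Entpd1 level in the aOX40 libraries and 3.12%, 3.44%, 1.64%, 3.21% and 3.45% in the IgG libraries. This share does not depend on the scaling between libraries, and all 3 aOX40 libraries were above all 5 IgG libraries. Replicate 2 was far above the other aOX40 libraries, which were nearer to the highest IgG value. Of all genes tested, 8.22% had aOX40 higher and 7.75% had aOX40 lower without overlap. The share was not among the planned results and was not tested.

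Of the other genes of extracellular ATP and adenosine, 2 rose and 2 fell among 19 tested, with a median log2 fold change of 0.31. Above 0 were 13 of the 19, beside 52.2% of all genes tested. The ones that rose were the adenosine receptor gene Adora2a and Cd38, whose product breaks down NAD. Adora2a was at 2.78, 1.62 and 3.23 CPM in aOX40 and at 0.637 CPM in IgG replicate 3 and 0 in the other 4 IgG libraries (edgeR adjusted p = 0.0265), so that its fold change rests on 1 IgG library. Cd38 was at 53.4, 71.8 and 45.6 CPM in aOX40 and 13.8, 7.99, 1.36, 27.4 and 11.6 CPM in IgG, a log2 fold change of 2.18 (SE 0.52, edgeR adjusted p = 0.0384). The ones that fell were the ATP-gated channel gene P2rx7, at 1.99, 1.01 and 1.47 CPM in aOX40 and 6.05, 6.41, 7.63, 11.6 and 4.82 CPM in IgG, without overlap (a change of -2.32 in log2, SE 0.47, edgeR adjusted p = 0.0242), and the UDP-sugar receptor gene P2ry14, at 1.69 ± 1.40 CPM with aOX40 and 14.1 ± 8.35 CPM with IgG (-3.01, SE 0.68, edgeR adjusted p = 0.0329). P2ry14 lies in Med12l on the other strand, which had 2.83 CPM with aOX40 and 15.8 CPM with IgG, and without a stated strand setting their reads may not be told apart. Adora2b, another adenosine receptor gene, named after its values were seen, was at 53.0 ± 22.3 CPM with aOX40 and 14.8 ± 11.8 CPM with IgG, without overlap, and did not pass (edgeR adjusted p = 0.0645). Cd38, P2ry14 and Adora2a lost their call without any 1 of the 3 aOX40 libraries, and P2rx7 without aOX40 replicate 2 or 3. The call of Cd38 was also lost without IgG replicate 2, 3 or 6, and that of P2ry14 without IgG replicate 3 or 5.

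Wfdc17 (chr11:83703991-83706268, plus strand) encodes a small secreted protein with a WAP domain, a fold shared by inhibitors of leukocyte proteases. It was at 762, 322 and 336 CPM in aOX40 replicates 1 to 3 and at 1009, 428, 855, 997 and 1032 CPM in IgG replicates 2 to 6. Each group held 1 library against its trend, with aOX40 replicate 1 near the IgG levels and IgG replicate 3 near the lower aOX40 levels. For Wfdc17, the log2 fold change was -0.87 (SE 0.36, 95% interval -1.66 to -0.08, edgeR adjusted p = 0.165), and it was -1.39 without aOX40 replicate 1 (adjusted p = 0.0591, the smallest of its 17 alternatives, whose largest was 0.461). Of 6 genes tested in the list of WAP domain proteins and leukocyte proteases and inhibitors, 1 rose and 0 fell. Over all genes tested, 2.64% were higher and 3.00% lower. All 6 of the list were above 0, where 52.2% of all genes were, with a median log2 fold change of 0.30. The one that rose was the proteinase 3 gene Prtn3 (edgeR adjusted p = 0.0403), between very low levels of 1.22 ± 0.28 CPM with aOX40 and 0.10 ± 0.15 CPM with IgG, and it was called in 5 of 16 alternative analyses. Slpi, the abundant secreted inhibitor of neutrophil elastase, was at 4738 ± 1436 CPM with aOX40 and 3448 ± 1497 CPM with IgG and did not pass.

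Cd84 (chr1:171839697-171890718, plus strand) encodes a receptor of the SLAM family that binds itself on neighbouring cells. It was at 191, 164 and 140 CPM in aOX40 replicates 1 to 3 and at 388, 190, 221, 253 and 205 CPM in IgG replicates 2 to 6. The groups met where aOX40 replicate 1 and IgG replicate 3 had nearly the same level, and IgG replicate 2 was the highest. For Cd84, the log2 fold change was -0.61 (SE 0.26, 95% interval -1.18 to -0.03, edgeR adjusted p = 0.179), and it was -0.39 without IgG replicate 2 and -0.30 with total counts alone. Of 8 tested genes of the SLAM family and its adaptors, 1 rose and 0 fell, with a median log2 fold change of -0.08. The one that rose was Ptpn6, which encodes the phosphatase SHP-1, at 346, 501 and 419 CPM in aOX40 and 77.4, 173, 218, 143 and 156 CPM in IgG, without overlap (log2 fold change 1.46, SE 0.28, edgeR adjusted p = 0.0207). It was called in 14 of 17 alternative analyses, but not without aOX40 replicate 2 (0.118) or 3 (0.0766).

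Over the 9 pathway lists, 107 different genes were tested, of which 7 rose and 6 fell, beside 2.64% higher and 3.00% lower over all genes tested. The median log2 fold change of the 107 was 0.06 and that of all genes 0.05, with 55.1% and 52.2% above 0. Of the 13 called, 0 were called without aOX40 replicate 2, 1 (Itgb3) without aOX40 replicate 3 and 7 without IgG replicate 3, and with the older edgeR deviance estimates, described with the processing, 6 were called (Furin, Cish, Pim1, Itgb3, P2rx7 and Ptpn6).

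**Figure D4:**
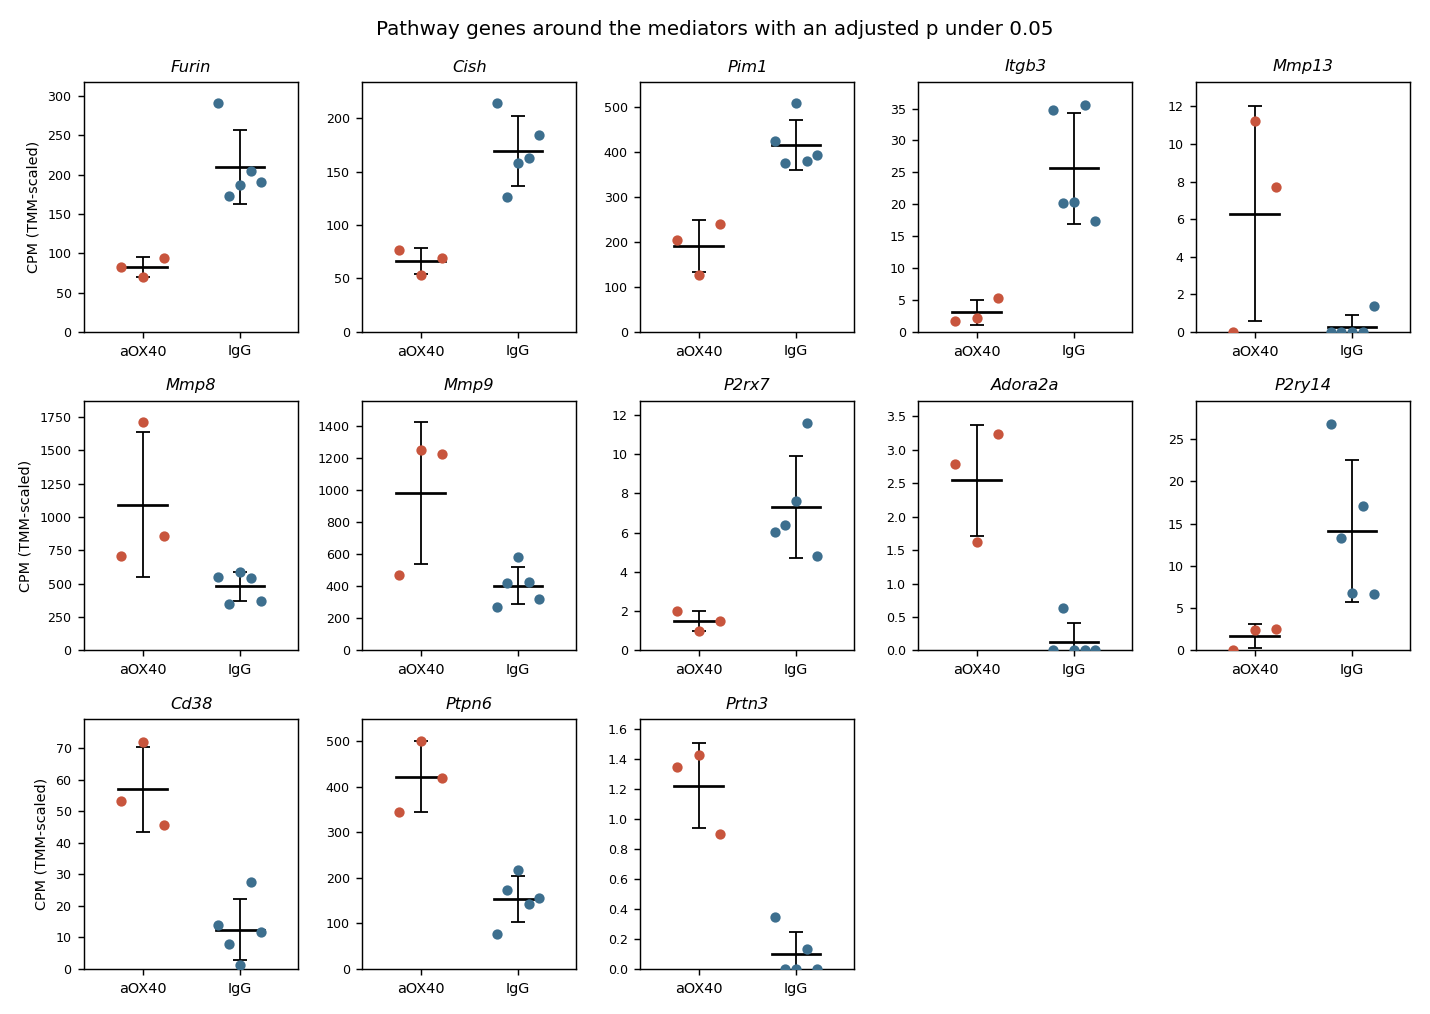
CPM in every library of the 13 pathway genes with an adjusted p below 0.05, aOX40 left and IgG right, points in replicate order, with the group mean ± SD in black. Furin, Cish, Pim1, Itgb3, P2rx7 and P2ry14 are lower in aOX40 without overlap, and Mmp13 and Adora2a are at 0 in most IgG libraries.

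Within a group, single libraries were often at the end of the range for several mediators. Among aOX40 libraries, replicate 1 had the lowest level of 7 of the 10 mediators (Vegfa, Tgfb1, Osm, Spp1, Mmp12, Entpd1 and Nt5e) and the highest of Wfdc17 and Cd84, and replicate 3 had the highest level of 7. Among IgG libraries, replicate 6 had the highest level of 6 mediators, while replicate 4 had the lowest of Tgfb1, Spp1, Mmp12 and Nt5e and the highest of Osm. The spread within a group, as a coefficient of variation, was widest for Nt5e in aOX40, at 62.0%, and for Il10 in IgG, at 64.7%, and narrowest for Osm in aOX40, at 15.2%, and for Entpd1 in IgG, at 19.8%.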

How the data were processed

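Gene expression was measured by bulk RNA sequencing in 8 libraries. The values the authors deposited are estimated counts for each gene symbol, with no scaling of libraries. The submitters' processing notes name mm10 as build and, as tools, featureCounts 1.5.1, Subread and STAR 2.6.0. Settings, strand included, were not found in the sources used here. Of the values, 63.4% were whole within 0.01. Groups came from the sample titles, and columns were matched by sample name.

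Counts were rounded, filtered with filterByExpr, scaled with TMM factors and compared with edgeR's quasi-likelihood test (edgeR 4.0.16 with its newer deviance estimates, R 4.3.3), fitting group alone, with Benjamini-Hochberg adjustment over 13278 genes. Intervals of log2 fold changes used the same fit. Marker sums were compared with an exact permutation test over 56 splits (smallest p 0.0357, SciPy 1.17.1). Positions and exon lengths came from GENCODE M21 on GRCm38, which is mm10. No mediator had a near copy (95% identity over 50% of its longest transcript, BLAST). The procedure was checked on simulated data, where only recovery of changes larger than that of any mediator was required. The members and lists were chosen with earlier results of these data known. The genes named are the 10 mediators, the called genes of each pathway list or else its 3 with the smallest p, and 8 others named after their values were seen (Adora2b, Cd44, Hif1a, Il10ra, Prok2, Slpi, Stat5a and Stat5b), beside single cell type markers. Alternatives were other scalings, filters and tests (DESeq2 1.42.0, limma 3.58.1), each library left out, and the replicate number as a block. The older deviance estimates, the default of this edgeR version, were run first and called 320 genes. The newer ones, which call 750, were then taken as the main result, after both counts were known, to follow an earlier processing of these data, and the older ones became an alternative. All alternatives for pathway genes were also added after the data were seen.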

Additional observations from a re-analysis of the deposited data

Results flagged for a closer look

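In 5 of 37 groups of IgG values examined, 1 library stood apart from the rest by Dixon's ratio. Chance alone sets off this test in about 1 of 20 groups. The aOX40 libraries were not examined in this way. Osm was at 4190 CPM in IgG replicate 4, the highest of the 5 IgG libraries, of which the next had 2274 CPM. Furin was at 291 CPM and Nfil3 at 1437 CPM in IgG replicate 2, where the next IgG libraries had 204 and 830 CPM. Mmp13 was at 1.40 CPM in IgG replicate 6 and Adora2a at 0.637 CPM in IgG replicate 3, each with 0 in the other 4 IgG libraries. With 4 libraries at 0 the ratio of the remaining one is at its maximum whatever its size, so these 2 are not to be read against the chance rate, which leaves 3.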

How the results depend on the processing

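All 10 mediators kept the side of 0 of their fold change in every alternative in which they were tested. At most 1 mediator was called in any of them: Il10 when libraries were scaled by total counts alone (1 called), and Osm with a mean of at least 5 CPM as the filter (1) and in DESeq2 (1). Il10 and Mmp12 did not reach that filter. With 1 library left out, 0 mediators were called each time, with an unadjusted p below 0.05 for 2 to 8 of them. In the whole table, 750 genes were called, against 452 with no filter, 1413 in DESeq2, 320 with the older edgeR estimates and 0 to 589 with 1 library left out. The TMM factors were 1.07 to 1.27 in aOX40 and 0.874 to 0.984 in IgG. Total counts alone moved the median over all genes to 0.35 (log2) and gave 874 higher and 246 lower calls, against 351 higher and 399 lower. For the pathway genes, 13 were called, against 21 in DESeq2, 6 with the older edgeR estimates and 0 to 12 with 1 library left out. The cause of these differences was not tested. The replicate numbers 2 and 3 occur in both groups. Deviations of libraries with the same number correlated at r = 0.02 and 0.05 across genes. Pairs with different numbers ran from -0.04 to 0.03. With so few pairs, these values cannot settle whether a shared number marks a pairing or batch, which was not tested. With the replicate block, 0 genes were called in the whole table (2594 at an unadjusted p below 0.05), 0 among the pathway genes and 0 among the mediators. The difference in summed CPM, aOX40 minus IgG, of the dendritic cell markers (-16.6, exact permutation p = 0.0357) was -11.8 with total counts alone (p = 0.143, exact), and lay between -19.1 and -14.1 with 1 library left out. The smallest exact p possible with 1 library left out is 0.0571 or 0.0952, so no call could be made there and the test says nothing of stability. That of neutrophil markers ran from -1488 to 2411 CPM with 1 library left out, that of T and NK cell markers from -0.50 to 0.71 and that of B cell markers from -0.22 to 0.21, on both sides of 0. Il10 and Mmp12 rest on as few as 40 and 42 counts in a library, which limits their precision.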
